A study of Mus musculus with 26 samples.

Results

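Cd5, Cd6, Cd69, Ptpn6, Ptpn22, Ubash3a, Cbl and Cblb are 8 genes whose products report or restrain signaling through the T cell receptor (TCR). They were chosen by gene symbol from the 46517 symbols in the table of normalized counts, and all 8 passed the filter on low values (10 or more in 2 or more libraries), as did 16372 symbols in all. They were followed in sorted thymocytes of 3 TCR transgenic mouse lines with MHC-I-restricted receptors, namely TG6 (low self-reactivity), F5 (intermediate) and OT-1 (high). OT-1 mice were OT-1tg Rag2KO and F5 mice F5tg Rag1KO, both of strain C57/BL6. TG6 mice were TG6tg H2b/d on a C57/BL6 x B6.C-H2d/bByJ background and kept their Rag genes, so line, background and Rag genotype cannot be told apart. Every mouse carried a TCR transgene, none was treated, and no line without a transgene was sequenced. Each line stands for 1 receptor clone. The labels give no age. Thymocytes were sorted by surface phenotype. Cells called early were CD4+CD8+ with CXCR4 and without CCR7, those called late were CD4+CD8+ with CCR7 and without CXCR4, and mature CD8SP cells had the CXCR4-CCR7+ phenotype and had lost CD4. This gave 9 groups and 26 libraries, 3 for each group and 2 for TG6 late positive selection.

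Positive selection tests whether the TCR of a CD4+CD8+ thymocyte binds self-peptide on MHC, and cells whose receptor does so survive and mature. CD5 is a surface receptor that dampens TCR signaling and whose surface amount is widely used as a readout of self-reactivity, CD6 is its close relative, and CD69 appears on the surface soon after a TCR signal. Ptpn6 (SHP-1), Ptpn22 and Ubash3a (STS-2) act on phosphotyrosines downstream of the receptor, and Cbl and Cblb are E3 ubiquitin ligases that promote removal of active receptors and kinases. The study itself placed the lines by CD5 and Nur77 protein on CD8SP cells. Cd5 RNA in the same lines is therefore not an independent measure of their order.

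Values below are normalized counts unless stated, and differences are on the log2(value + 1) scale with their standard error (SE) or 95% interval from limma, with p-values adjusted over all 16372 genes. A gene was called when the adjusted p was under 0.05. Library totals lay between 16134786 and 18944173. Cd3e was present in every group, Ccr7 lay at 112 to 863 at the early stage and at 2698 to 12719 later, and Cd4 fell to 62.8 to 461 in mature cells. Cxcr4 RNA was 1219 to 4031 in mature cells, which overlapped the 1425 to 5527 of the early stage. Transcripts of the targeted genes were still listed, with Rag1 at 10835 to 16266 in early F5 cells and Rag2 at 176 to 291 in early OT-1 cells. Their symbols do not show which part of either gene was deleted. At the early stage, the summed preselection genes (Rag1, Rag2 and Ptcra) were 53770 to 61380 in TG6, 11860 to 18190 in F5 and 4632 to 7463 in OT-1. Most of this sum was Rag1 (early means 54642, 14083 and 5491), the targeted gene in F5, while Rag2 was targeted in OT-1. Ptcra, targeted in no line, was 335 to 483 in early TG6, 360 to 475 in F5 and 111 to 185 in OT-1. Ptcra thus overlapped between TG6 and F5. The summed cycling genes (Mki67, Top2a, Ccnb1, Cdk1 and Birc5) were 33210 to 69830 early, 326 to 6036 late and 12970 to 63260 in mature cells. In early cells the cycling sum was 33210 to 35870 in TG6, below the 50510 to 64640 of F5 and the 48130 to 69830 of OT-1. Both sums thus moved with stage and, in early cells, with line, where Cd5, Cd69, Ptpn6, Cbl and Cblb were called in OT-1 against TG6. OT-1 and TG6 did not overlap in either sum at the later stages. In late cells the cycling sum was 2443 to 4336 in OT-1 and 462 to 551 in TG6. The preselection sum was 40.4 to 98.6 and 138 to 276. In mature cells these were 55460 to 63260 and 12970 to 50270, and 263 to 674 and 749 to 6276. The part of both sums in the results below was not tested at any stage. In such bulk samples, fewer cells of a type and less RNA per cell cannot be told apart.

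In the cycling sum or Rag1, 3 libraries stood apart within their groups. F5 late replicate 2 had a cycling sum of 6036 (326 and 344 in the other F5 late libraries) and Rag1 at 1658 (62.3 and 109). TG6 mature replicate 3 had a cycling sum of 50270 (12970 and 14180) and Rag1 at 5265 (620 and 696). F5 mature replicate 2 had a cycling sum of 39710 (14060 and 22620). Values without these libraries are given below where a call changed. Other libraries stood apart in other genes, F5 replicate 1 in several of them and at each stage. Nr4a1, which encodes the TCR-induced receptor Nur77, was 9595 in early F5 replicate 1 against 2806 and 3371, and 6879 in early TG6 replicate 3 against 2283 and 2299. In F5 replicate 1, Klf2 was 3936 against 640 and 731 in late cells and 13763 against 4344 and 5985 in mature cells. S1pr1 was 277 in its early cells against 65.0 and 75.4, and 1893 in its late cells against 612 and 657. Some markers of other cells moved with line. The myeloid sum of 6 genes was 118 to 597, although its members ran apart in early cells. Itgax was 13.8 to 52.2 in early OT-1, 1.98 to 3.87 in TG6 and 0.971 to 2.90 in F5, Csf1r averaged 27.0, 3.08 and 1.85, and H2-Aa averaged 112, 16.2 and 37.1, while Itgam averaged 75.7, 220 and 193. Their part in the line differences was not tested. Ncr1 was at 0 in all 26 libraries, and the epithelial sum of 5 genes was 24.5 to 76.0. Of the B cell genes, Ighm was 2641 to 10110 while Pax5 was at 0 in 19 of the libraries, and an erythroid sum of 3 genes was 6.08 to 389. The summed gamma delta genes Trdc and Tcrg-C1 were 1614 to 3501 in TG6, 6451 to 9998 in F5 and 5419 to 9074 in OT-1, most of it Trdc. Tcrg-C1 ran differently, at 102 to 275 in early OT-1 cells against 7.74 to 21.9 in TG6 and 6.79 to 34.8 in F5. Zbtb7b, a marker of the CD4 lineage, was 72.7 to 254 in early OT-1 cells, 3.71 to 20.1 in TG6 and 2.47 to 8.59 in F5. These genes moved with line, which cannot be told apart from Rag genotype. Their counts do not show which cells held the transcripts. Their part in the line differences was not tested.

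Between lines, Cd5 was called in 7 of 9 comparisons, Cd6, Cd69 and Cblb in 4 each, Ptpn6 in 2, Cbl in 1, and Ptpn22 and Ubash3a in none. At early positive selection, 4 of the 8 genes were called higher in OT-1 than in TG6 (Cd5, Cd69, Ptpn6 and Cblb) and 1 lower (Cbl), where 15.4% of all tested genes were called higher and 12.4% lower. None was called between OT-1 and F5 (7.81% of all genes higher, 4.88% lower), and Cd5 and Ptpn6 were called higher in F5 than in TG6 (3.12% higher, 3.35% lower). At the late stage, Cd5, Cd6 and Cd69 were called higher in OT-1 than in TG6 (9.34% higher, 6.21% lower), Cd5, Cd6, Cd69 and Cblb higher in OT-1 than in F5 (13.6% higher, 10.4% lower), and Cd5 and Cd6 higher in F5 than in TG6 (1.75% higher, 3.23% lower). In mature CD8SP cells, Cd5 and Cd6 were called higher in OT-1 than in TG6 (4.67% higher, 5.08% lower) and Cd5, Cd69 and Cblb higher in OT-1 than in F5 (13.3% higher, 10.1% lower). Cblb was the only one of the 8 called lower in F5 than in TG6 there, and none was called higher (2.14% higher, 4.5% lower). With 8 genes, these shares are a description beside the background and no test of the list. The 3 comparisons at a stage share their groups.

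The background itself depended on scaling. When values were scaled to equal totals, the median difference of all genes between OT-1 and TG6 moved to −0.109 early and −0.129 late, and to −0.127 between mature OT-1 and F5, from −0.00217, 0.00174 and 0.0075. The share of called genes that lay higher in OT-1 against TG6 moved from 55.3 to 40.9% early, from 60.1 to 38.9% late and from 47.9 to 30.5% in mature cells, and in OT-1 against F5 from 61.5 to 43.7%, from 56.8 to 46.1% and from 56.9 to 34.4%. Quantile normalization moved mature OT-1 against F5 to 44.8%. No called difference of the 8 genes changed direction under either other scaling.

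**Figure D1:**
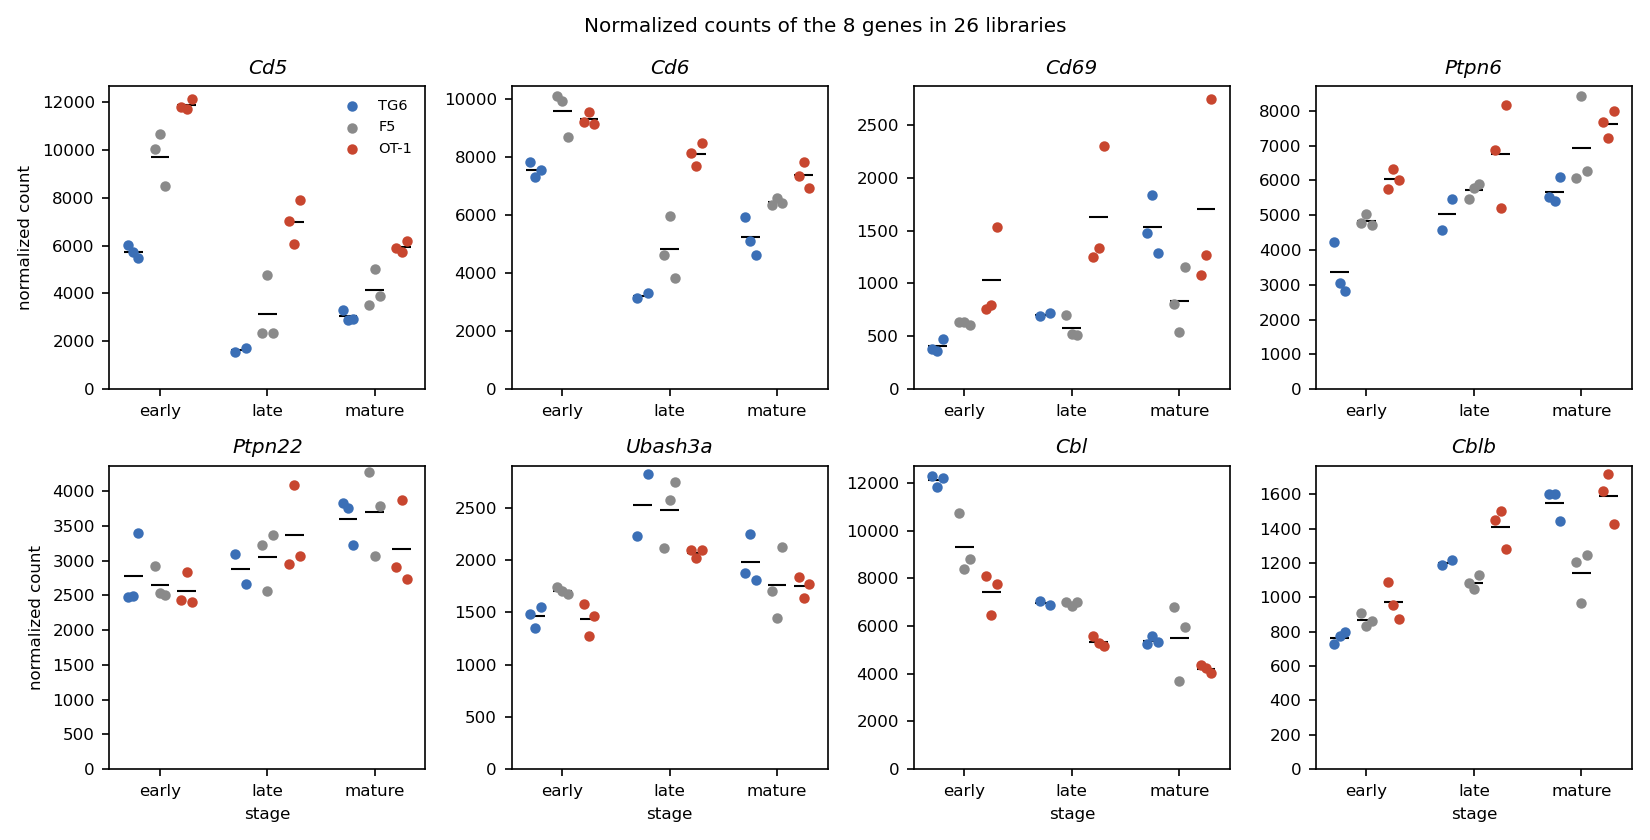
Normalized counts (y axis, linear from 0) of the 8 genes in each of the 26 libraries, by stage (x axis) and line (color), where each point is 1 library and each black line the mean of a group. Cd5 was highest in the 3 early OT-1 libraries (11683 to 12135) and lowest in the 2 late TG6 libraries (1550 and 1703), while the 26 values of Ptpn22 stay between 2410 and 4273.

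**Figure D2:**
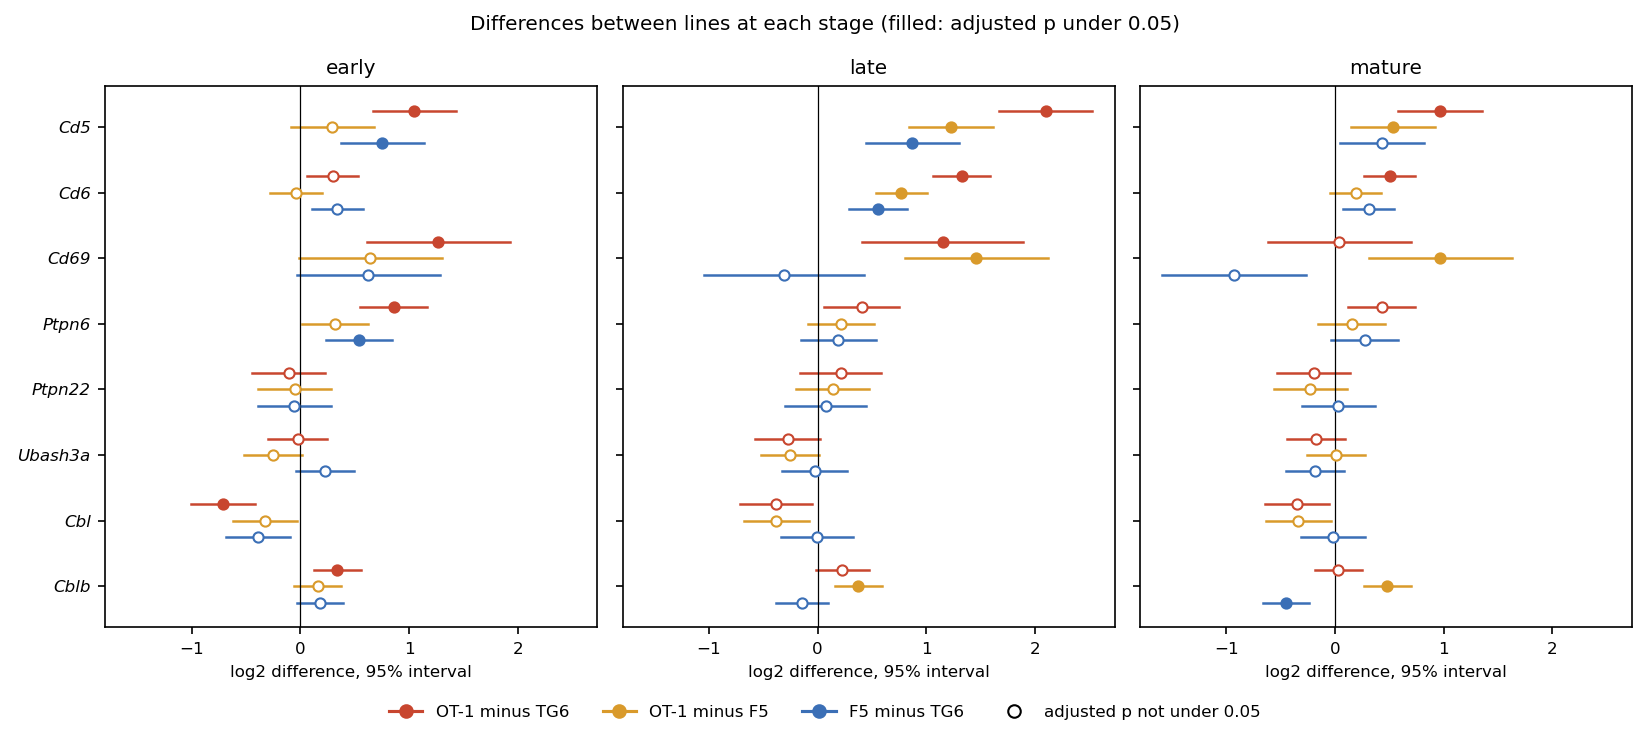
Difference between lines on the log2 scale (x axis) for the 8 genes (y axis) in early, late and mature CD8SP cells, one panel each, with 95% intervals from limma. Filled points have an adjusted p under 0.05, and the largest difference was that of Cd5 between OT-1 and TG6 at the late stage (2.10).

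From early to late positive selection, Cd5, Cd6 and Cbl RNA fell while Ubash3a and Cblb rose, with Cd6 not called in OT-1. In TG6, 3 genes rose (Ptpn6, Ubash3a and Cblb) and 3 fell (Cd5, Cd6 and Cbl), where 12.1% of all genes were called higher and 13.3% lower. In F5, 2 rose (Ubash3a and Cblb) and 3 fell (Cd5, Cd6 and Cbl), with 12.7% higher and 14% lower. In OT-1, the same 2 rose and 2 fell (Cd5 and Cbl), also with 12.7% higher and 14% lower. From late positive selection to the mature stage, 4 rose in TG6 (Cd5, Cd6, Cd69 and Cblb) and none fell, where 14.5% of all genes were called higher and 7.79% lower. In F5, Cd6 rose and Ubash3a fell (12.2% higher, 8.31% lower). In OT-1, none of the 8 was called (14% higher, 10.4% lower). In TG6, quantile normalization moved the share of called genes that were higher from 65.1 to 49.4%, and total scaling to 49.8%. In OT-1, quantile normalization moved it from 57.5 to 46.2%.

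**Figure D3:**
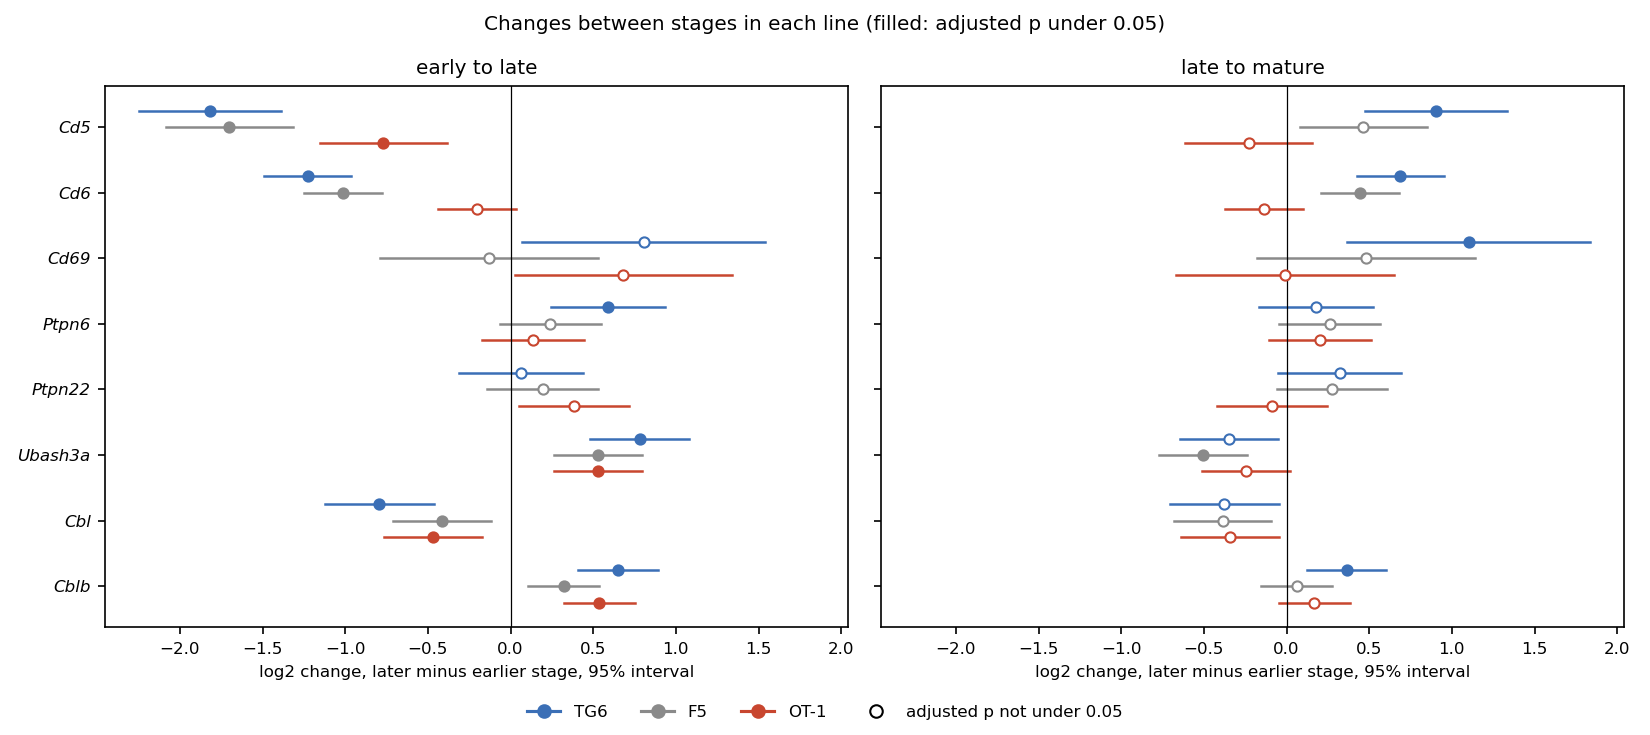
Change between stages on the log2 scale (x axis, later minus earlier) for the 8 genes (y axis) within TG6, F5 and OT-1, with 95% intervals from limma. Filled points have an adjusted p under 0.05, and from early to late Cd5 fell by 1.82 in TG6, by 1.70 in F5 and by 0.77 in OT-1.

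Cd5, which encodes the inhibitory receptor by which the lines were ordered, had the widest range of the 8 genes. Its mean was 7.30-fold higher in early OT-1 cells than in late TG6 cells. The gene lies on chromosome 19, minus strand, at chr19:10717116-10739002 of GRCm38 (GENCODE vM21). The sequence around its start in RefSeq (GRCm38.p6, chr19:10738925-10739224, minus strand, 250 bases before to 50 after the start) is shown because Cd5 carried the largest line difference. Capitals mark matches to an E box (CANNTG), and no match to the EGR motif GCGNGGGCG was found.
Cd5: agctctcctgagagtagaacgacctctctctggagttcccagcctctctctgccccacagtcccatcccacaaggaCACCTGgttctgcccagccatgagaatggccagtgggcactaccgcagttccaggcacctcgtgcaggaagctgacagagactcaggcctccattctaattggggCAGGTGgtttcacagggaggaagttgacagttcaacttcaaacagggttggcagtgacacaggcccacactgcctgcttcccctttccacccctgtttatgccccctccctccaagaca
An E box was present in 72.3% and the EGR motif in 5.55% of the 32851 promoters of this length, so the former is common.

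At early positive selection, Cd5 was 5463, 5712 and 6040 in TG6, 8468, 10035 and 10650 in F5, and 11683, 11790 and 12135 in OT-1. No 2 lines overlapped. OT-1 was 2.07-fold above TG6 (log2 difference 1.05 ± 0.18, SE, adjusted p = 0.000213 in limma) and F5 was 1.69-fold above TG6 (0.75 ± 0.18, adjusted p = 0.0144). OT-1 against F5 was not called (0.295, 95% interval −0.0884 to 0.678, adjusted p = 0.329), and without the 3 libraries that stood apart its adjusted p was 0.033. The call in F5 against TG6 was lost without F5 early replicate 1 or 2 or TG6 early replicate 3, with differences of 0.73, 0.69 and 0.72. At late positive selection, Cd5 was 1550 and 1703 in TG6, 2336, 2362 and 4754 in F5, and 6063, 7029 and 7913 in OT-1. The lines again did not overlap, with F5 replicate 2 far above its 2 group mates. OT-1 was 4.28-fold above TG6 (2.10 ± 0.21, adjusted p = 2.8e-07) and 2.34-fold above F5 (1.23 ± 0.18, adjusted p = 3.84e-05, and 1.57 without F5 late replicate 2). F5 was 1.83-fold above TG6 (0.87 ± 0.21, adjusted p = 0.0124), which came to 0.53 (adjusted p = 0.0316) without F5 late replicate 2. That call was lost without either TG6 late library (0.80 and 0.94), where the lone TG6 library is assumed to vary like the other groups. It was also lost with only the groups compared (adjusted p = 0.348).

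In mature CD8SP cells, Cd5 was 2877, 2952 and 3302 in TG6, 3515, 3912 and 5022 in F5, and 5750, 5892 and 6186 in OT-1. The lines did not overlap. OT-1 exceeded TG6 by 0.97 ± 0.18 (adjusted p = 0.0015 in limma) and F5 by 0.53 ± 0.18 (adjusted p = 0.0405). The cycling sum was 55460 to 63260 in mature OT-1 cells, above the 12970 to 50270 of TG6 and the 14060 to 39710 of F5. The OT-1 against F5 call held only without F5 mature replicate 2. It was lost without F5 mature replicate 1 (0.42), F5 mature replicate 3 (0.50), OT-1 mature replicate 1 (0.54), OT-1 mature replicate 2 (0.56) or OT-1 mature replicate 3 (0.505), under total scaling (0.39, adjusted p = 0.151), under quantile normalization (0.43, adjusted p = 0.117), without a trend (adjusted p = 0.0614) and with no filter (adjusted p = 0.0671). It was called in 6 of 10 alternatives. F5 against TG6 was 0.43 (95% interval 0.05 to 0.82, adjusted p = 0.202).

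Across stages, Cd5 fell from early to late in all 3 lines. It fell by 1.82 ± 0.21 in TG6 (adjusted p = 8.25e-07), by 1.70 ± 0.18 in F5 (adjusted p = 7.25e-07, and by 2.04 without F5 late replicate 2) and by 0.77 ± 0.18 in OT-1 (adjusted p = 0.0035), all in limma. From late to mature it rose in TG6 by 0.90 ± 0.21 (adjusted p = 0.00299). In F5 the change was 0.47 ± 0.18 (adjusted p = 0.0813), which was called with the mouse as a block (adjusted p = 0.0115) and without F5 late replicate 2 (0.80, adjusted p = 0.000126). Without the 3 libraries that stood apart it was 0.66 and called (adjusted p = 0.000355). In OT-1 it was −0.23 (95% interval −0.61 to 0.15). The excess of OT-1 over TG6 in late minus early cells was 1.05 ± 0.28 (adjusted p = 0.0513 in limma), not called. It was called in 5 of 10 alternatives, with the mouse as a block (adjusted p = 0.00727) and without the 3 libraries that stood apart (adjusted p = 0.000151) among them, and in 0 of 11 fits that left out 1 library (adjusted p = 0.053 to 0.224). Of all genes, 2.04% were called for this difference of differences. Between mature and early cells the excess differed by −0.08 (95% interval −0.62 to 0.46), a test in which 4.2% of all genes were called. In order of mean, Cd5 stood highest in early OT-1, then early F5, late OT-1, mature OT-1, early TG6, mature F5, late F5, mature TG6 and late TG6. Neighbors in that order did not overlap between early OT-1 and early F5, early F5 and late OT-1, early TG6 and mature F5, and mature TG6 and late TG6.

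Cd6 encodes the relative of CD5 that binds ALCAM, and its course over the 9 groups was like that of Cd5. The gene lies at chr19:10789341-10830058, on the same strand as Cd5, with 50338 bases and 1 annotated gene, not protein coding, between them. Cd6 was 7305, 7540 and 7836 in early TG6 cells, 8692, 9948 and 10102 in early F5 cells, and 9134, 9216 and 9567 in early OT-1 cells. F5 and OT-1 overlapped, and TG6 lay below both. OT-1 against TG6 was 0.30 ± 0.11 (adjusted p = 0.0527 in limma), not called, and without the 3 libraries that stood apart its adjusted p was 0.0061. F5 against TG6 was 0.34, with an adjusted p of 0.0821 in limma and of 0.00706 without those libraries. At the late stage, Cd6 was 3128 and 3331 in TG6, 3850, 4625 and 5987 in F5, and 7693, 8143 and 8470 in OT-1. No 2 lines overlapped. OT-1 was 2.51-fold above TG6 (1.33 ± 0.13, adjusted p = 1.8e-07) and 1.71-fold above F5 (0.77 ± 0.11, adjusted p = 2.89e-05). F5 was 1.47-fold above TG6 (0.55 ± 0.13, adjusted p = 0.00921), a call lost without TG6 late replicate 1 (0.51) or TG6 late replicate 2 (0.60). It was also lost with only the groups compared (adjusted p = 0.298). Without F5 late replicate 2 it was 0.39 and still called, and OT-1 against F5 was 0.94.

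In mature cells, Cd6 was 4644, 5107 and 5946 in TG6, 6341, 6425 and 6606 in F5, and 6943, 7355 and 7843 in OT-1. The 3 lines did not overlap, but only OT-1 against TG6 was called (0.50 ± 0.11, adjusted p = 0.00657 in limma). That call was lost under quantile normalization (0.37, adjusted p = 0.0658) and with only the groups compared (adjusted p = 0.122). From early to late, Cd6 fell by 1.23 ± 0.13 in TG6 (adjusted p = 2.22e-07) and by 1.01 ± 0.11 in F5 (adjusted p = 1.06e-06). In OT-1 the change was −0.20 (95% interval −0.44 to 0.03). The excess of OT-1 over TG6 was 1.03 ± 0.17 larger late than early (adjusted p = 0.00174), and Cd6 was the only one of the 8 genes called for that difference in the fit without a block. It was called in 11 of 11 fits that left out 1 library. From late to mature, Cd6 rose by 0.69 ± 0.13 in TG6 (adjusted p = 0.00043) and by 0.45 ± 0.11 in F5 (adjusted p = 0.00686). The F5 rise came to 0.295 and was not called without F5 late replicate 3. With only the groups compared, neither rise was called (adjusted p = 0.0604 in TG6 and 0.159 in F5).

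Over the 26 libraries, log2 values of Cd5 and Cd6 correlated at Pearson r = 0.965 (Spearman rho = 0.962), and their deviations from the group means at r = 0.783. The libraries share lines, stages and mice, so these are descriptions. Both genes deviated most in F5 late replicate 2 (Cd5 0.678 and Cd6 0.336). In mature OT-1 replicate 3 they deviated in opposite directions (0.0585 and −0.0863). Cd5 nevertheless moved more than Cd6. The log2 value of Cd5 minus that of Cd6 was 0.35 ± 0.06 (SD) in early OT-1 cells, 0.02 ± 0.07 in early F5 cells and −0.40 ± 0.06 in early TG6 cells. The 3 lines did not overlap in it. By the late stage it was −0.22 ± 0.12, −0.67 ± 0.32 and −0.99 ± 0.03 in the same lines, with F5 late replicate 2 at −0.33. The level of this difference carries the lengths of both genes, and its change between groups does not.

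**Figure D4:**
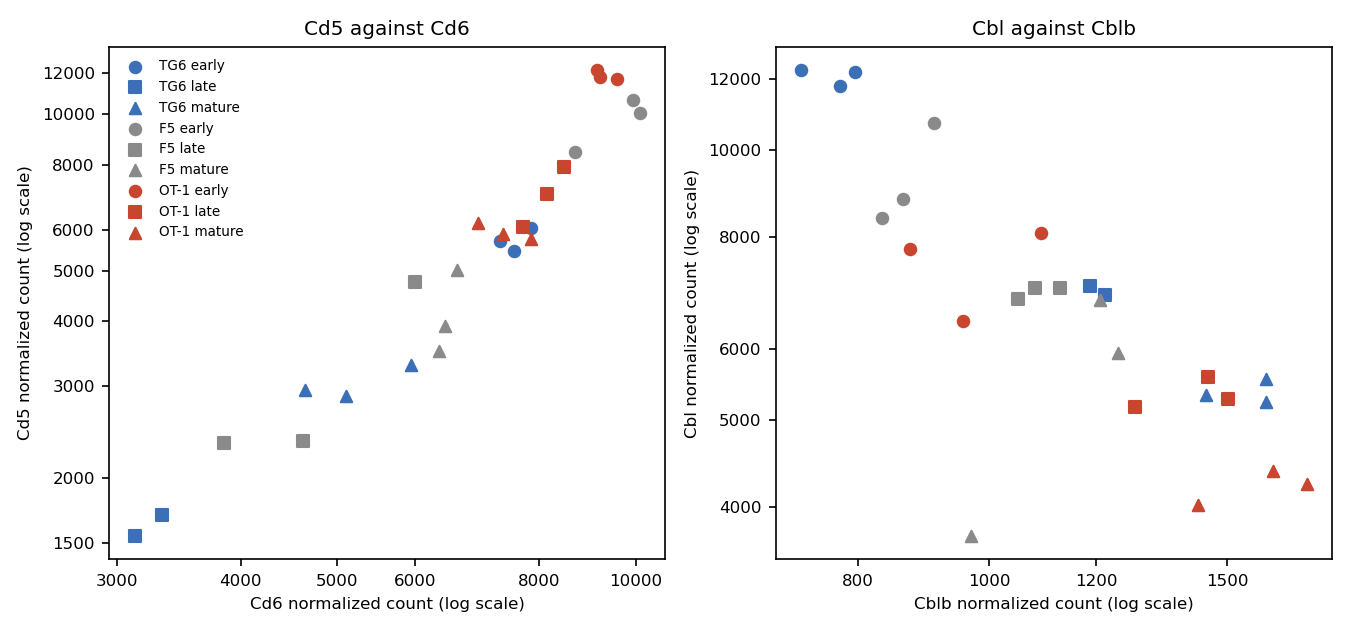
Normalized counts of Cd5 against Cd6 (left) and of Cbl against Cblb (right) in the 26 libraries, both axes on a log scale, with color for line and symbol for stage. Cd5 and Cd6 rise together (Pearson r = 0.965 of log2 values), Cbl and Cblb run opposite ways (r = −0.80), and F5 mature replicate 2 lies apart at a Cbl of 3713.

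Cd69, the early activation antigen that also keeps the egress receptor S1PR1 off the surface, varied more between mice than any other of the 8 genes. It lies at chr6:129267325-129275436, minus strand. In early cells, Cd69 was 364, 383 and 473 in TG6, 604, 633 and 634 in F5, and 760, 796 and 1533 in OT-1. No 2 lines overlapped. OT-1 was 2.41-fold above TG6 (1.27 ± 0.32, adjusted p = 0.00487 in limma), called in 6 of 6 fits that left out 1 library. At the late stage, Cd69 was 688 and 724 in TG6, 508, 521 and 697 in F5, and 1252, 1336 and 2297 in OT-1. OT-1 lay above both other lines, which overlapped each other. OT-1 exceeded F5 by 1.46 ± 0.32 (2.75-fold, adjusted p = 0.00175) and TG6 by 1.15 ± 0.35 (2.22-fold, adjusted p = 0.0311). The latter was lost without OT-1 late replicate 3 (0.87), TG6 late replicate 1 (1.11) or TG6 late replicate 2 (1.19), under total scaling (1.01, adjusted p = 0.0565) and with no filter on low values (adjusted p = 0.0505).

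In mature cells TG6 and OT-1 overlapped. Cd69 was 1283, 1476 and 1840 in TG6, 540, 805 and 1158 in F5, and 1082, 1273 and 2747 in OT-1. OT-1 also overlapped F5, and F5 lay below TG6. OT-1 against TG6 was 0.04 (95% interval −0.62 to 0.70), and OT-1 against F5 was 0.97 ± 0.32 (adjusted p = 0.0311 in limma). The F5 comparison was lost without OT-1 mature replicate 3 (0.56), F5 mature replicate 1 (0.98) or F5 mature replicate 2 (0.69). It was also lost under total scaling (0.83, adjusted p = 0.0651), with no filter (adjusted p = 0.0505) and with only the groups compared (adjusted p = 0.165). Without the 3 libraries that stood apart it was lost too (0.69, adjusted p = 0.137), and it was called in 6 of 10 alternatives. F5 against TG6 was −0.93 (adjusted p = 0.0891), called without F5 mature replicate 3 (−1.20, adjusted p = 0.0414).

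From late to mature, Cd69 rose by 1.10 ± 0.35 in TG6 (adjusted p = 0.0286 in limma), a call lost without TG6 mature replicate 2 (0.96), TG6 late replicate 1 (1.06) or TG6 late replicate 2 (1.14). From early to late the change was 0.80 in TG6 (adjusted p = 0.106) and 0.68 in OT-1 (adjusted p = 0.12), and each was called with the mouse as a block (adjusted p = 0.0138 and 0.0112). In TG6 that block rests on taking the late libraries as mice 1 and 2, and their deviations correlated with those of the early libraries at 0.023 and 0.0507 only. The TG6 change was also called with only the groups compared (adjusted p = 0.009), and so in 2 of 10 alternatives. Without OT-1 early replicate 3, the OT-1 change was 1.01 (adjusted p = 0.0323). The excess of OT-1 over TG6 in mature minus early cells was −1.23 (95% interval −2.16 to −0.30, adjusted p = 0.155 in limma), not called. It was called in 1 of 10 alternatives, the mouse as a block (adjusted p = 0.03), and in 1 of 12 fits that left out 1 library, that without OT-1 mature replicate 3 (adjusted p = 0.0256), with adjusted p-values of up to 0.372 in the others.

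OT-1 replicate 3 was the highest of its group at each stage, at 0.65, 0.55 and 0.82 above the mean log2 value of early, late and mature OT-1 cells. The same replicate was lowest for Nr4a1, with 6006 against 14650 and 16128 in early cells, 4592 against 9993 and 13330 in late cells and 2518 against 3848 and 5010 in mature cells. Egr1, another gene induced at once by TCR signals, was 1250 in OT-1 late replicate 3 against 2801 and 4069. Egr3, of the same kind, went the other way and was highest in replicate 3 at each stage, with 32.5, 221 and 304. The part of any shared handling of that replicate was not tested.

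**Figure D5:**
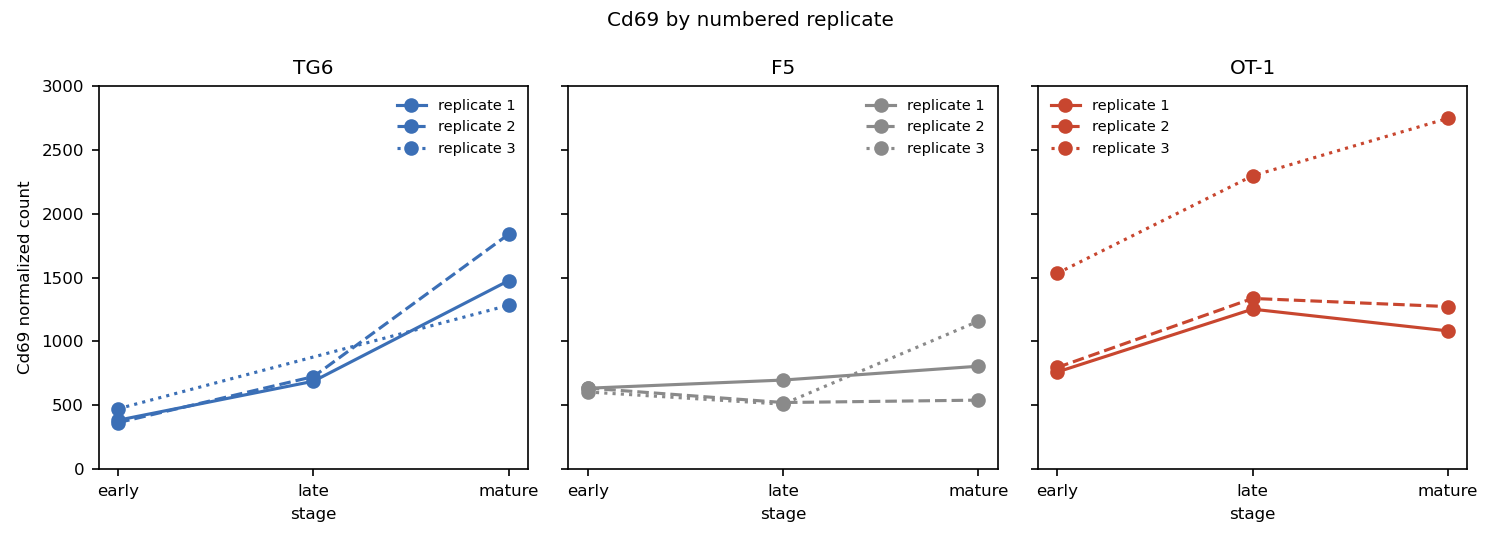
Normalized counts of Cd69 (y axis, from 0) at the 3 stages (x axis) in TG6, F5 and OT-1, with lines joining libraries of the same replicate number. OT-1 replicate 3 lies above the other OT-1 replicates at each stage (1533, 2297 and 2747), and the lines in TG6 end at 1283 to 1840.

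Ptpn6 encodes SHP-1, a phosphatase recruited to inhibitory receptors, and it was lowest in early TG6 cells. It lies at chr6:124720707-124738714, minus strand, and 195 of its 2802 exonic bases overlap the antisense gene Gm20531, so reads from them cannot be told apart without strand. Ptpn6 was 2835, 3060 and 4230 in early TG6 cells, 4708, 4770 and 5028 in early F5 cells, and 5752, 6019 and 6332 in early OT-1 cells. No 2 lines overlapped. OT-1 was 1.81-fold above TG6 (0.86 ± 0.15, adjusted p = 0.000169 in limma) and F5 1.45-fold above TG6 (0.54 ± 0.15, adjusted p = 0.0301). The F5 call was lost without F5 early replicate 1 (0.55), 2 (0.51) or 3 (0.56) or without TG6 early replicate 2 (0.48) or 3 (0.43). It was also lost without a trend (adjusted p = 0.0533) and with only the groups compared (adjusted p = 0.0696). In late cells Ptpn6 was 4574 and 5474 in TG6, 5460, 5791 and 5902 in F5, and 5195, 6873 and 8168 in OT-1, and the lines overlapped. OT-1 against TG6 was 0.41 (adjusted p = 0.105), and 0.58 without OT-1 late replicate 2 (adjusted p = 0.0195). In mature cells it was 5412, 5514 and 6091 in TG6, 6055, 6282 and 8433 in F5, and 7229, 7669 and 8005 in OT-1. OT-1 lay above TG6 without overlap (0.43, adjusted p = 0.07), called without TG6 mature replicate 3 (0.48, adjusted p = 0.0355) and without the 3 libraries that stood apart (0.48, adjusted p = 0.0239). From early to late, Ptpn6 rose in TG6 by 0.59 ± 0.17 (adjusted p = 0.0106), a call lost without TG6 late replicate 2 (0.46) or TG6 early replicate 3 (0.48). It was also lost with only the groups compared (adjusted p = 0.0703).

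Ptpn22, a phosphatase that acts on Lck and other TCR-proximal kinases, was not called in any of the 15 comparisons between groups. It lies at chr3:103859795-103912247, plus strand. Its 26 values ran from 2410 to 4273, and the highest group mean (F5 mature) was 1.45-fold the lowest (OT-1 early). No neighboring groups in the order of its means were free of overlap. The change from early to late in OT-1 was 0.38 (95% interval 0.05 to 0.72, adjusted p = 0.0833 in limma), called with the mouse as a block (adjusted p = 0.0161) and without the 3 libraries that stood apart (adjusted p = 0.0477).

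Ubash3a encodes STS-2, a T cell protein that binds ubiquitin and Cbl, and its transcript peaked at the late stage. It lies at chr17:31207873-31246892, plus strand. It was 1354, 1482 and 1551 in early and 2228 and 2825 in late TG6 cells, 1672, 1701 and 1746 in early and 2116, 2572 and 2750 in late F5 cells, and 1275, 1466 and 1579 in early and 2016, 2094 and 2101 in late OT-1 cells. Early and late cells did not overlap in any line. It rose by 0.78 ± 0.14 in TG6 (adjusted p = 0.000265 in limma), by 0.53 ± 0.13 in F5 (adjusted p = 0.00353) and by 0.53 ± 0.13 in OT-1 (adjusted p = 0.00391), and each call was kept in every fit that left out 1 library. In mature cells it was 1811, 1874 and 2254 in TG6, 1442, 1709 and 2125 in F5, and 1642, 1772 and 1835 in OT-1. It fell from late to mature in F5 by 0.50 ± 0.13 (adjusted p = 0.00695), although 1 mature library overlapped the late ones. The call was lost without F5 mature replicate 2 (−0.37) and without the 3 libraries that stood apart (−0.34, adjusted p = 0.117). It was also lost with only the groups compared (adjusted p = 0.135). In TG6 that change was −0.35 (adjusted p = 0.0888), called without TG6 mature replicate 2 (−0.45, adjusted p = 0.0371), and in OT-1 it was −0.24 (adjusted p = 0.176). No comparison between lines was called for Ubash3a.

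Cbl and Cblb, the ubiquitin ligases c-Cbl and Cbl-b, moved in opposite directions. Cbl lies at chr9:44142976-44234049, minus strand, and Cblb at chr16:52031225-52208048, plus strand. Their promoter windows in RefSeq (GRCm38.p6, chr9:44233997-44234296, minus strand, and chr16:52031299-52031598, plus strand) are shown because these relatives took opposite courses. Capitals mark matches to the EGR motif on either strand and to an E box.
Cbl: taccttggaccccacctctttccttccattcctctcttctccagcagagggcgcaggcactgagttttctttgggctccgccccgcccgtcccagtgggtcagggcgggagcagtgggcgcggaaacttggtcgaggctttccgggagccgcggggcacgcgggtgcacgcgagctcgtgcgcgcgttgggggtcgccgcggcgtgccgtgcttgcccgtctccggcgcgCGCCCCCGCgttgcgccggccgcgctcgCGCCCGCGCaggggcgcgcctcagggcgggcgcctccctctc
Cblb: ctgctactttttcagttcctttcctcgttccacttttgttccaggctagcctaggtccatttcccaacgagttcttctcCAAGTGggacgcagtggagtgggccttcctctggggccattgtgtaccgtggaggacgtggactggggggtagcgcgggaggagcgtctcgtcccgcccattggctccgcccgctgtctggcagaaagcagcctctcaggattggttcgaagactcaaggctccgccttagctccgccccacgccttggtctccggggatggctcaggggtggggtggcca
The Cbl window held 2 matches to the EGR motif and no E box, and the Cblb window held 1 E box and no match to the EGR motif. The GC content was 74% for Cbl and 61.3% for Cblb, against a median of 52.7% over all promoters of the table. Neither window held a match to AP-1 (TGANTCA) or to the CRE core TGACG, which were found in 7.81% and 20.8% of all promoters. Matches to NFAT (GGAAAN) and to the ETS core GGAAG, found in 61.2% and 71.4% of all promoters, were present in both. Of the 8 genes, 6 had a promoter in that table, and Cd6 and Cd69 had none.

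Cbl was highest in early TG6 cells and lowest in mature OT-1 cells. In early cells, Cbl was 11815, 12222 and 12287 in TG6, 8402, 8815 and 10725 in F5, and 6454, 7751 and 8081 in OT-1. No 2 lines overlapped. OT-1 lay below TG6 by a log2 value of −0.71 ± 0.14 (adjusted p = 0.00078 in limma), called in 6 of 6 fits that left out 1 library. In late cells it was 6897 and 7059 in TG6, 6818, 7020 and 7021 in F5, and 5167, 5284 and 5591 in OT-1, and OT-1 lay below both other lines. In mature cells it was 5233, 5328 and 5560 in TG6, 3713, 5947 and 6808 in F5, and 4024, 4239 and 4381 in OT-1. OT-1 lay below TG6 without overlap, and F5 mature replicate 2 was the lowest of all 26 libraries. OT-1 against TG6 was −0.38 late and −0.35 in mature cells, and OT-1 against F5 was −0.32, −0.38 and −0.34 at the 3 stages, with adjusted p-values from 0.0569 to 0.146. Without the 3 libraries that stood apart, all 6 OT-1 comparisons were called, with differences of −0.32 to −0.71 and a largest adjusted p of 0.0141. Early F5 against TG6 (−0.39) then had an adjusted p of 0.00632, against 0.122 with all libraries. Under total scaling all 6 were called as well. Without F5 mature replicate 2 alone, OT-1 against F5 in mature cells was −0.595 (adjusted p = 0.00026).

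Cbl fell from early to late in each line. The change was −0.79 ± 0.16 in TG6 (adjusted p = 0.000609 in limma), −0.41 ± 0.14 in F5 (adjusted p = 0.0347) and −0.47 ± 0.14 in OT-1 (adjusted p = 0.0178). The F5 fall stayed called only without F5 early replicate 2, and was −0.31 without F5 early replicate 1, −0.45 without F5 early replicate 3, and −0.42, −0.40 and −0.42 without F5 late replicates 1, 2 and 3. It was also lost with no filter (adjusted p = 0.0602) and without a trend (adjusted p = 0.0548). The OT-1 fall was lost without OT-1 late replicate 2 (−0.46), OT-1 late replicate 3 (−0.44), OT-1 early replicate 1 (−0.40) or OT-1 early replicate 3 (−0.43). From late to mature the change was −0.38 in TG6, −0.39 in F5 and −0.34 in OT-1, none called, with adjusted p-values of 0.0956, 0.0591 and 0.0842. Without the 3 libraries that stood apart, TG6 (adjusted p = 0.0204) and OT-1 (adjusted p = 0.00585) were called. With the mouse as a block, F5 (adjusted p = 0.0182) and OT-1 (adjusted p = 0.0298) were called. The F5 change was called without F5 mature replicate 1 (−0.56, adjusted p = 0.00522) or F5 mature replicate 3 (−0.47, adjusted p = 0.0443) and was −0.14 (adjusted p = 0.459) without the 3 libraries that stood apart.

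Cblb ran the other way, lowest in early TG6 cells and highest in mature OT-1 cells. It was 726, 776 and 796 in early TG6 cells, 833, 864 and 910 in early F5 cells, and 874, 957 and 1092 in early OT-1 cells, and TG6 lay below both other lines. OT-1 against TG6 was 0.34 ± 0.10 (adjusted p = 0.0174 in limma), a call lost without OT-1 early replicate 1 (0.26) or TG6 early replicate 1 (0.30), under total scaling (0.23, adjusted p = 0.0887) and under quantile normalization (0.29, adjusted p = 0.053). In late cells it was 1187 and 1218 in TG6, 1050, 1081 and 1129 in F5, and 1283, 1451 and 1502 in OT-1. No 2 lines overlapped, and OT-1 exceeded F5 by 0.37 ± 0.10 (adjusted p = 0.0108), lost without OT-1 late replicate 2 (0.33). In mature cells it was 1446, 1603 and 1603 in TG6, 970, 1208 and 1246 in F5, and 1427, 1621 and 1717 in OT-1. F5 lay below both other lines. OT-1 exceeded F5 by 0.48 ± 0.10 (adjusted p = 0.00206), and F5 lay below TG6 by a log2 value of −0.45 ± 0.10 (adjusted p = 0.00745), lost without F5 mature replicate 2 (−0.34). With only the groups compared, neither difference was called (adjusted p = 0.0534 and 0.251).

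Cblb rose from early to late by 0.65 ± 0.12 in TG6 (adjusted p = 0.000179 in limma), by 0.32 ± 0.10 in F5 (adjusted p = 0.0233) and by 0.54 ± 0.10 in OT-1 (adjusted p = 0.000516). The F5 rise was lost without F5 late replicate 3 (0.295), F5 early replicate 2 (0.29) or F5 early replicate 3 (0.32). From late to mature it rose in TG6 by 0.36 ± 0.12 (adjusted p = 0.0262), a call lost without TG6 mature replicate 1 or 2 (0.34 each), TG6 late replicate 1 (0.35) or TG6 late replicate 2 (0.38). It was also lost under total scaling (0.25, adjusted p = 0.107), under quantile normalization (0.30, adjusted p = 0.0814) and with only the groups compared (adjusted p = 0.128). The log2 value of Cbl minus that of Cblb fell from 3.98 ± 0.08 (SD) in early to 1.79 ± 0.09 in mature TG6 cells, from 3.41 ± 0.13 to 2.23 ± 0.28 in F5 and from 2.93 ± 0.20 to 1.41 ± 0.10 in OT-1, with no overlap between early and mature libraries of a line. Over the 26 libraries, Cbl and Cblb correlated at r = −0.80, while their deviations from the group means correlated at r = 0.635. The sign was thus negative over all libraries and positive over the pooled deviations, but not in each group. Both genes deviated most in F5 mature replicate 2 (Cbl −0.518 and Cblb −0.226). In late TG6 cells they deviated in opposite directions (0.0168 and −0.0183 in replicate 1).

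Among 30 other genes listed as attenuators of TCR or cytokine signals, 29 were tested. In OT-1 against TG6, 9 were called higher and 5 lower in early cells, 6 higher and 0 lower in late cells, and 3 higher and 0 lower in mature cells, with list medians of 0.04, 0.23 and 0.05 beside −0.00217, 0.00174 and −0.00994 over all genes. Of all tested genes, 15.4% were called higher and 12.4% lower early, 9.34% and 6.21% late, and 4.67% and 5.08% in mature cells. The 4 called in the most line comparisons, 6 of 9 each, were Csk, the kinase that inactivates Lck, the phosphatase Ptpn2, the adaptor Sh2d2a and Ubash3b (STS-1), the relative of Ubash3a. In early cells, Ubash3b was 153 to 170 in TG6, 229 to 335 in F5 and 305 to 482 in OT-1 (OT-1 minus TG6 1.28, adjusted p = 1.95e-05 in limma). Csk was 4600 to 4995 in TG6 and 7744 to 7911 in OT-1 (0.72, adjusted p = 1.52e-07), and neither gene overlapped between OT-1 and TG6. Ptpn2 (0.85) and Sh2d2a (0.32) were also called higher in early OT-1 cells. In OT-1 against F5, 9 of the list were called higher and 2 lower early (7.81% and 4.88% of all genes), 4 and 4 late (13.6% and 10.4%), and 6 and 3 in mature cells (13.3% and 10.1%). In F5 against TG6, 3 were called higher and 2 lower early (3.12% and 3.35%), 1 and 1 late (1.75% and 3.23%), and 2 and 0 in mature cells (2.14% and 4.5%).

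Of the 15 listed partners and targets of these proteins, 3 were called higher and 5 lower in OT-1 against TG6 early, 1 and 4 late, and 0 and 3 in mature cells, with medians of −0.08, 0.03 and −0.05, beside the same 15.4% and 12.4%, 9.34% and 6.21%, and 4.67% and 5.08% of all genes. In OT-1 against F5 these were 2 and 1 early (7.81% and 4.88% of all genes), 0 and 4 late (13.6% and 10.4%), and 1 and 2 in mature cells (13.3% and 10.1%). In F5 against TG6 they were 1 and 1 (3.12% and 3.35%), 1 and 0 (1.75% and 3.23%), and 2 and 0 (2.14% and 4.5%). Lck, the kinase that starts TCR signaling, was called in 9 of 9 line comparisons. It was highest in F5 and lowest in OT-1 at each stage, with 30660 to 32247 in F5, 24511 to 25897 in TG6 and 17055 to 19679 in OT-1 in early cells. Lcp2 (SLP-76) and Zap70 were each called in 4, the adaptor Lcp2 lower in OT-1 than in TG6 and F5 at the late (−0.75 and −0.65) and mature stages, and the kinase Zap70 higher in OT-1, against TG6 early (0.30) and late (0.33) and against F5 early (0.27) and in mature cells (0.31). Among the 3 genes tied to CD6 and CD69 function, S1pr1, the egress receptor, and Klf2, the factor that drives it, were each called higher in OT-1 than in TG6 and F5 early and late. S1pr1 was 870 and 1431 in late TG6 cells, 612 to 1893 in late F5 cells and 8896 to 10220 in late OT-1 cells (OT-1 minus TG6 3.06, adjusted p = 0.000107 in limma). Alcam, which encodes the CD6 ligand, did not exceed 31.1 in any library and was called once, higher in F5 than in TG6 in early cells. Of 7 listed genes that TCR signals induce, 2 were called higher in OT-1 than in TG6 early, 3 late and 0 in mature cells. Beside them, 15.4, 9.34 and 4.67% of all genes were called higher. None of the 7 was called lower. In OT-1 against F5, 1, 3 and 1 were called higher (7.81, 13.6 and 13.3% of all genes) and none lower. In F5 against TG6 none was called higher, and 0, 1 and 1 were called lower (3.35, 3.23 and 4.5%). Tnfrsf9 (4-1BB) was called in 4 of 9 and Egr1 in 3 of 9 line comparisons. Tnfrsf9 was 0 to 7.09 in late F5 cells, below the 94.3 and 165 of TG6 and the 44.0 to 83.1 of OT-1, and Egr1 was 1.43 higher in OT-1 than in TG6 in late cells (adjusted p = 0.0138).

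Genes that ran most like each of the 8 were ranked by Pearson r of log2 values over the 26 libraries, among 9898 genes with a mean of at least 100 and apart from the 8 themselves. The libraries share lines and stages, so r describes a shared course over groups. Nearest to Cd5 were Trpv2 (r = 0.902), Phf6 (0.90) and Itih5 (0.895), all below its r with Cd6. Trpv2 was also nearest to Cd6 (0.903). For Cd69 it was Pgd (0.912), for Ptpn6 Dad1 (0.88), for Ptpn22 Hps3 (0.832) and for Ubash3a Herc3 (0.892). Cbl was closest to Prkcb (0.946), Aff1 (0.945) and Fbxl12 (0.939), and Cblb to Cotl1 (0.961) and Glipr2 (0.954). Cd69 correlated with Cblb at 0.736 and with Cd5 at 0.0634.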

How the data were processed

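RNA from sorted thymocytes of 3 lines at 3 stages was sequenced, 26 libraries in 9 groups. Per the study's methods and processing notes, the authors used Trimmomatic (0.32) for trimming, Bowtie2 (2.3.2) for alignment to mm10 and RSEM (1.2.31) for quantification, which assigns shared reads of relatives such as Cbl and Cblb by estimate, and they deposited signal values, namely counts divided by DESeq2 median-of-ratios size factors (version not given in the sources used here). Reads were not recovered, since only 42.4 to 44.3% of values were whole multiples of the most frequent value (tolerance 0.01). Depth was estimated at 16161676 to 18345798 reads per library, so no count test was run.

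Log2(value + 1) of 16372 symbols (10 or more in 2 or more libraries) was fitted with limma (3.58.1, R 4.3.3), with 1 mean for each of the 9 groups, 17 residual degrees of freedom, a prior variance that follows the mean, and Benjamini-Hochberg adjustment within each comparison. The fit was also run on simulated data, and since no result of that run is given, it lends the calls no support here. The 8 genes and the other lists were chosen with earlier results of these data known. All 8 genes are named, and of each list up to 4 genes called in the most of the 9 line comparisons. Of the marker genes and the genes most like each of the 8, 2 are not reported here. P-values rest on 1 spread per gene, that of libraries within groups, pooled over the 9 groups and drawn toward the prior variance. Without a block, the sorted populations of 1 mouse were taken as independent, also in comparisons between stages.

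The design states that each mouse gave the sorted populations, and the labels number the mice, so numbers were taken as pairing (TG6 late titles carry another prefix, so that the TG6 pairing is less sure). Within-group deviations of same-numbered libraries had correlations of 0.106 to 0.34 in F5 (9 of 9 pairs over 0.1), 0.0189 to 0.178 in OT-1 (5 of 9) and 0.023 to 0.274 in TG6 (2 of 7). The block is fixed for stage comparisons (11 residual degrees of freedom) and random for the others (statmod 1.5.0, consensus correlation 0.28).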

Additional observations from a re-analysis of the deposited data

Results flagged for a closer look

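Cd6 differed in its line contrast between stages. The excess of OT-1 over TG6 was 0.30 at early and 1.33 at late positive selection on the log2 scale, and the difference of 1.03 ± 0.17 (SE) passed the test of that difference itself (adjusted p = 0.00174 in limma, with OT-1 above TG6 in 3 of 3 libraries at each stage). TG6 had 2 late libraries. The cycling sum was 462 to 551 in late TG6 and 2443 to 4336 in late OT-1 cells, and its part in this result was not tested. No other of the 8 genes was called for a difference between stages in the fit without a block. With the mouse as a block, Cd5 late minus early (1.06, adjusted p = 0.00727) and Cd69 mature minus early (−1.23, adjusted p = 0.03) were called too. Dixon's test was not run, since no group held more than 3 libraries.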

How the results depend on the processing

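No called difference turned its direction under any setting. Of the 9 planned settings and 1 chosen after seeing the data, these moved the number of the 8 genes called by more than 1.5 times. Other settings moved a count by less, such as early OT-1 against TG6 from 5 to 4 under either scaling and to 6 with a mean of at least 50. For the OT-1 excess over TG6 in late minus early cells it became 2 with a pseudocount of 5, a mean of at least 50, only the groups compared, the replicate block and the 3 libraries that stood apart left out (the added setting). For mature OT-1 against F5 it was 1 without the filter and with only the groups compared. For early OT-1 against F5 it was 1 under total scaling, quantile normalization and only the groups compared, and 2 under the added setting. For late to mature OT-1 it was 1 under total scaling, the replicate block and the added setting, and 2 with only the groups compared. For mature OT-1 against TG6 it was 1 under quantile normalization and only the groups compared, and 4 under the added setting. For early F5 against TG6 it was 1 without a trend and 4 under the added setting. With only the groups compared it was 0 for F5 against TG6 in late and in mature cells, 0 for late to mature F5 and 2 for late to mature TG6. The cause was not tested. Calls over all genes moved with the setting as well. In mature OT-1 against TG6, 764 genes were higher and 831 lower with the deposited scaling. These became 512 and 1168 under total scaling, and 680 and 850 under quantile normalization. In early OT-1 against F5 they were 1278 and 799, 1009 and 1301, and 1178 and 957. For the settings without a change of scaling, no share of all genes is given here. The counts above are thus no result about the 8 genes as a set. The replicate block gave 4 for late to mature F5 and 1 for mature minus early, and it changed no call of the 8 genes other than those given beside their values in the report.

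Leaving out 1 library gave 0 to 2 calls for F5 against TG6 at each stage, 3 to 4 for F5 early to late, 1 to 3 for F5 late to mature and for mature OT-1 against F5, 0 to 1 for mature minus early and 2 to 4 for TG6 late to mature. Without 1 late TG6 library, the other is assumed to vary like the other groups. Depth was estimated only, and counting error could not be separated from the spread between mice.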
